A study of Mus musculus with 2 samples.

Results

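Cholesterol and fatty acid synthesis was followed through 38 genes, chosen by their symbols. They encode the enzymes that build sterols and long-chain fatty acids, the sensors that set their output, and the receptors and pumps that clear excess cholesterol. The array's annotation named 36 of the 38 with a probe set of their own, out of 18193 genes in all. Acsl1 and Nr1h2 had no value. RNA came from the spleens of C57BL/6 mice with hepatocellular carcinoma, a liver cancer. The sample titled CD45- cells held cells sorted for Ter119, a surface protein of red cells and their late precursors, and for absence of CD45, the common surface protein of white cells. The sample titled CD45+ cells held CD45-positive white cells of the same tumor-bearing animals and served as the control. Each group was 1 Affymetrix array, the animals' age and number and any pooling are not given in the sources used here, and no group without a tumor was analysed here.

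Cells make cholesterol from acetyl-CoA through mevalonate, farnesyl units and squalene, and they make fatty acids from the same acetyl-CoA through malonyl-CoA, after which elongases lengthen the chains and desaturases add double bonds. The SREBP transcription factors switch on both routes when membrane sterol is low, and they do so only after the escort protein Scap has carried them out of the endoplasmic reticulum. When sterol is plentiful, Insig proteins hold Scap back, while LXR receptors switch on the pumps Abca1 and Abcg1. Maturing red cells lose their organelles and keep a plasma membrane rich in cholesterol, and macrophages handle the lipid of the cells they engulf.

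The promoters of sterol enzymes are known for boxes bound by NF-Y, which works with SREBP, and for sterol regulatory elements bound by SREBP itself. A few stretches are shown because they come from genes that lay on opposite sides of the comparison below. They were read from the RefSeq promoter table of GRCm38.p6, which holds 250 bases before and 50 after each start, and only bases before the start are printed. Capitals mark the letters CCAAT or ATTGG, the NF-Y box on either strand, and in Hmgcs1 also TCACCCCAC, a match to the sterol regulatory element searched as TCACNCCAC on both strands. In the Fasn stretch, a CCAAT and an ATTGG overlap within CCAATTGG.
Hmgcs1: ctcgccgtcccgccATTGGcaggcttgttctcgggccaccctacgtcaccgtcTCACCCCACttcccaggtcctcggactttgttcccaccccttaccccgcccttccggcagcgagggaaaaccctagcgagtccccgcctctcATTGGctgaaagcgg
Fasn: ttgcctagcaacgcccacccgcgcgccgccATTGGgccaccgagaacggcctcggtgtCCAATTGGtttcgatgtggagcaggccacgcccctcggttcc
Elovl5: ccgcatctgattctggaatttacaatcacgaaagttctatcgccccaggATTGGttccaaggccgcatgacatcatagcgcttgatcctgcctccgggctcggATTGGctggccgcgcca
Fads3: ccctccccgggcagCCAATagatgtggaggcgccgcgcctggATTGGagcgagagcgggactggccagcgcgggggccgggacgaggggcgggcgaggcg
The Hmgcs1 stretch is chr13:119690161-119690320 on the plus strand, from base -190 to -31 before the start. The Fasn stretch is chr11:120824568-120824667 on the minus strand, from -120 to -21. The Elovl5 stretch is chr9:77917245-77917364 on the plus strand, from -120 to -1, and the Fads3 stretch is chr19:10041428-10041527 on the plus strand, from -120 to -21. Of the 38 genes, 31 had a promoter entry. Fdps, Fdft1, Sqle, Scd1, Scd2, Fads1 and Abcg1 did not. An NF-Y box was found in 12 of 12 cholesterol enzymes with an entry, in 5 of 8 fatty acid synthesis, desaturation and elongation genes, and in 0 of 3 LXR and efflux genes, against 41.1% of the 27025 genes of the table. The sterol regulatory element was found in Hmgcs1 and Acsl1, 2 of 31 genes, against 1.44% of all genes. These are matches of letters within the window, and a gene with several windows counted when any of them held the motif.

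The deposited values are linear intensities. A difference is always the log2 value of the CD45-negative array less that of the CD45-positive array, so positive values mean brighter in the Ter119-positive cells. Genes were called measured above a detection level of 127 in the CD45-negative and 101 in the CD45-positive array, set from 80 probe sets for olfactory and vomeronasal receptors, which are taken as silent in spleen. Where a gene was under the level in 1 array, the level took the place of its value, so its difference is a bound and is written "at least". Since each group was a single array, no test was possible, and the spread between animals is unknown for every difference. As deposited, probe sets of the same gene differed from each other with a pooled SD of 1.13 on the log2 scale over 5256 genes, which is not replicate error. Intensities of different genes were not compared with each other.

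The sorted cells carried the markers of their labels. All 6 erythroid markers with a value, among them Alas2 and Slc4a1, were at least 4-fold higher in the CD45-negative array, with summed intensities of 320450 against 10082. All 4 markers shared by white cells, including Ptprc, which encodes CD45, were at least 4-fold lower, at 1905 against 102077. Other cell lists differed by at least 4-fold too. Platelet and megakaryocyte markers were higher in 6 of 6 (34822 against 1642), and markers of dividing cells in 5 of 5 (160916 against 5800). Markers of B cells were lower in 4 of 4 (1641 against 88192), of T cells in 5 of 5 (443 against 30259), of neutrophils in 4 of 5 (3736 against 124575) and of macrophages and dendritic cells in 7 of 8 (2304 against 43043). None of the 5 liver and 3 fat cell markers with a value passed 4-fold. Only Afp among them exceeded a level, at 125.5 in the CD45-positive array by the probe set used. Of its 5 probe sets, 3 were above a level, 2 of them lower in the CD45-negative array, with differences down to -1.07. By the probe set used, 125.5 did not exceed the other array's level, so Afp gave no bound and entered the counts with a difference of 0. The part of these cell types in the differences below was not tested, and in such bulk samples fewer cells of a type and less RNA per cell cannot be told apart.

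The lipid genes did not lie on 1 side. Squalene synthase and the front-end desaturase Fads1 were higher in the CD45-negative cells, while the stearoyl-CoA desaturases, Elovl5, Scap and the cholesterol pumps were much lower. All 36 genes were measured in at least 1 array, and 29 in both. Fdft1 and Fads1, 2 of 36 (5.56%), were at least 4-fold higher, against 8.75% of the 11205 genes measured. Scap, Scd1, Scd2, Elovl5, Abca1 and Abcg1, 6 of 36 (16.7%), were at least 4-fold lower, against 16.3% of all genes, so at this threshold the share was that of the array as a whole. At 2-fold, a threshold added after the values were seen, 4 genes (11.1%) were higher against 17.6% of all genes, and 16 (44.4%) were lower against 33.3%. After quantile normalization these counts were 7 and 11, against 23.3% and 25% of all genes. In all, 26 of the 36 (72.2%) were dimmer in the CD45-negative array, against 57% of genes measured. Their median difference was -0.79, against -0.28 for all genes measured. Quantile normalization, which brought the median of all genes to 0, moved that of the lipid genes to -0.31, with 20 of 36 dimmer.

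**Figure D1:**
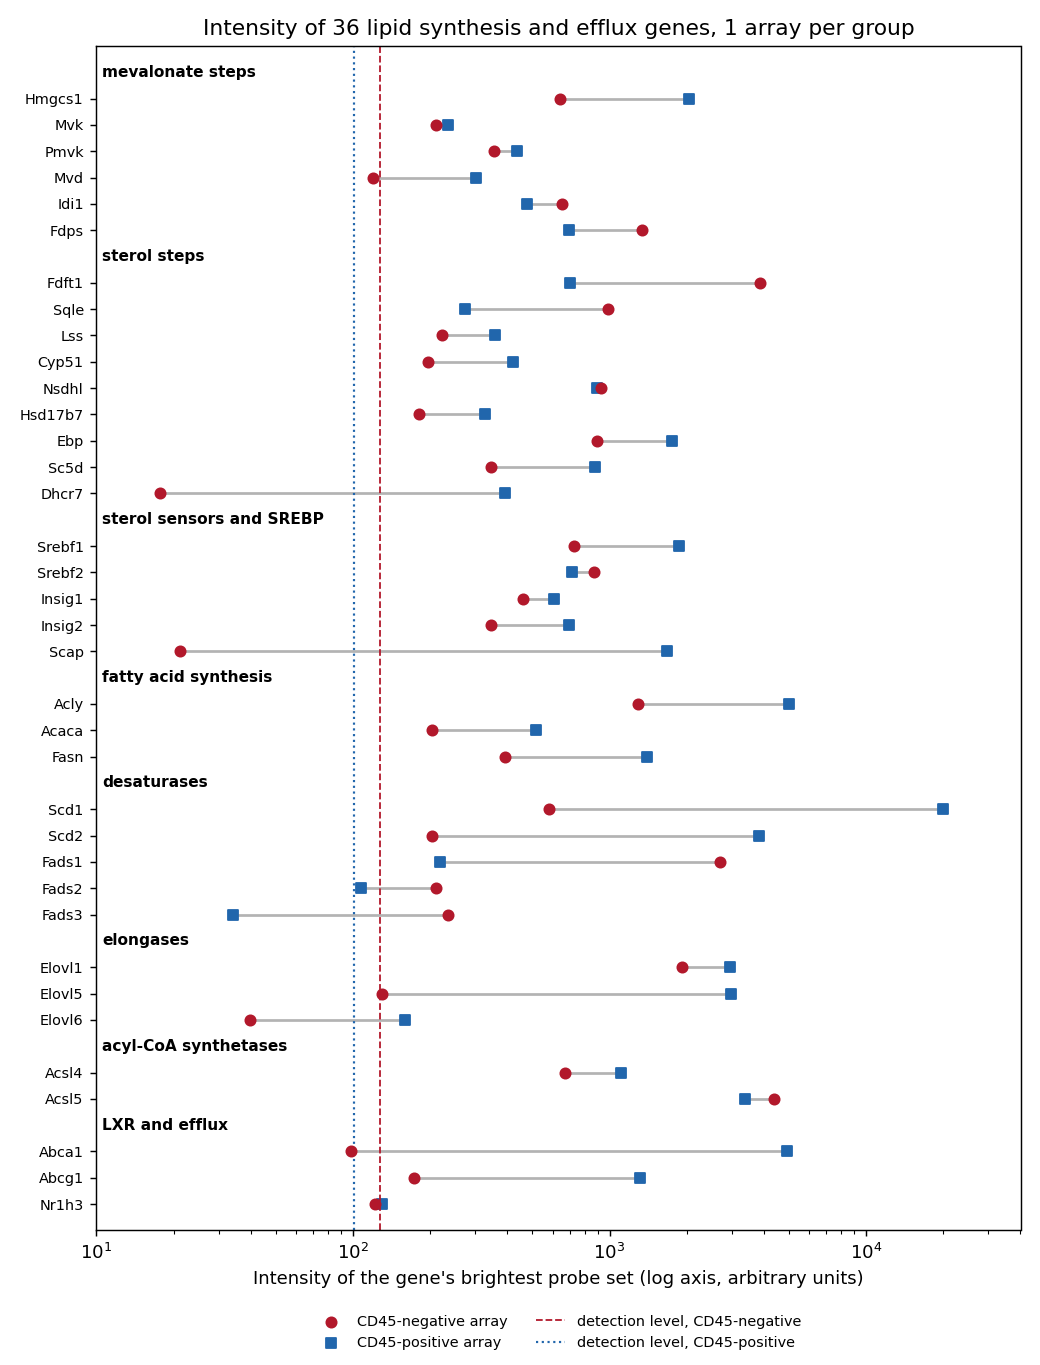
Intensity of each gene's brightest probe set on a log axis, in arbitrary units, with circles for the CD45-negative array, squares for the CD45-positive array, and dashed and dotted lines for the detection levels of 127 and 101. Scd1, Abca1 and Scap have the widest gaps with the square on the right, and Fads1 and Fdft1 show the circle far to the right of the square.

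The mevalonate steps, which turn acetyl-CoA into farnesyl diphosphate, were mostly alike in the 2 arrays, with 4 of 6 genes within 2-fold. Of all 11205 genes measured, 5496 were within 2-fold. Hmgcs1, which makes HMG-CoA at the entry of the pathway, stood at 643 in the CD45-negative array against 2049.5, 3.19-fold lower. All 4 of its probe sets above the level were lower, from -1.99 to -1.33, so the direction did not rest on the choice of probe set. Mevalonate kinase (Mvk) stood at 211 against 233.9 and phosphomevalonate kinase (Pmvk) at 355.3 against 436.1, differences of -0.15 and -0.30 whose sign turned after quantile normalization. Mvd, which decarboxylates mevalonate diphosphate, stood at 119.3, under the level, against 301.8, at least 2.37-fold lower. Idi1, the isomerase that readies the isoprene units for joining, stood at 653.4 against 477.8 by its brighter probe set, a difference of 0.45, and at -0.06 by the other. Farnesyl diphosphate synthase (Fdps) had 1338.6 against 695.5, 1.92-fold higher. Of the 6 genes, 0 passed 4-fold in either direction, against 8.75% of all genes higher and 16.3% lower. Their median difference was -0.22.

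From farnesyl diphosphate on, the committed steps to sterol were uneven. Squalene synthase (Fdft1), the first enzyme that serves sterols alone, stood at 3876.7 in the CD45-negative array against 701.3, 5.53-fold higher. Its second probe set above the level gave the same picture, with 2.45 against 2.47 on the log2 scale. With the mean over all 4 probe sets, including those under the level, the difference was at least 1.44, which no longer shows 4-fold. Squalene epoxidase (Sqle), the next enzyme and a control point of the pathway, had 982.2 against 272.5 by its only probe set, 3.60-fold higher. It passed 4-fold after quantile normalization, at 2.32. The enzymes that make farnesyl diphosphate, squalene and squalene epoxide were thus all brighter in the CD45-negative array, under each of the processing alternatives tried.

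The steps after squalene epoxide did not follow. Lanosterol synthase (Lss), which closes the sterol rings, stood at 221.7 against 357.4, a difference of -0.69 that turned to 0.074 after quantile normalization. Cyp51, the demethylase of lanosterol, stood at 196.7 against 419.1, 2.13-fold lower, and a second probe set gave -1.06 or below. Nsdhl, which removes carbon at position C4, was nearly level, at 928.2 against 892.9. Hsd17b7, its partner in that reaction, gave no direction, since its brightest probe set had 181 against 328.4 (-0.86) and another above the level gave 0.58. The isomerase Ebp stood at 891.8 against 1748.3 (-0.97) and the sterol desaturase Sc5d at 346.4 against 879.4 (-1.34, with a second probe set at -0.44 and the third too dim for a direction). Dhcr7, the reductase that ends the Kandutsch-Russell branch, showed 17.7 in the CD45-negative array, far under the level, against 389.7, at least 3.06-fold lower. Over the 15 cholesterol enzymes, 1 (6.67%) was at least 4-fold higher and 0 lower, against 8.75% and 16.3% of all genes. Their median difference was -0.69. That median turned to 0.074 after quantile normalization, so no direction holds for the enzymes as a group.

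The sensors stood apart from one another. Scap, the escort of SREBP, showed 21.1 in the CD45-negative array against 1676.5, at least 13.2-fold lower. This rests on 1 probe set, since the other lay below both detection levels. With the mean of both probe sets the difference was -1.43 or below, which no longer shows 4-fold. Srebf1, the SREBP gene tied mainly to fatty acid synthesis, had 724.5 against 1858.8, 2.57-fold lower. Srebf2, tied mainly to cholesterol synthesis, had 867.1 against 711.6, and its probe sets disagreed, with 0.29 and -0.70, so it has no settled direction. Insig1, itself an SREBP target, stood at 460 against 609.3 (-0.41, turned to 0.23 by quantile normalization) and Insig2 at 346 against 694.6, 2.01-fold lower with 3 of 3 probe sets lower.

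The 3 enzymes of fatty acid synthesis were all lower in the CD45-negative array, from 2.55-fold to 3.86-fold by their brightest probe sets as deposited. ATP citrate lyase (Acly), which supplies cytosolic acetyl-CoA, stood at 1291.8 against 4992.4, 3.86-fold lower. All 3 of its probe sets above the level in the CD45-positive array were lower, at -1.95, at -2.57, and at -3.32 or below where the CD45-negative value was under the level. Acetyl-CoA carboxylase (Acaca), which makes malonyl-CoA, stood at 202.5 against 515.7, 2.55-fold lower, and fatty acid synthase (Fasn), which builds palmitate, at 391.5 against 1398.5, 3.57-fold lower. None of the 3 passed 4-fold as deposited. All 3 were at least 2-fold lower, against 33.3% of all genes measured. Acly reached -2.06 after quantile normalization, while Acaca moved to -0.60, under 2-fold, and Fasn to -1.35. With the mean of all their probe sets, those under the level included, Acly was at -0.63 or below and Acaca at -0.49.

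**Figure D2:**
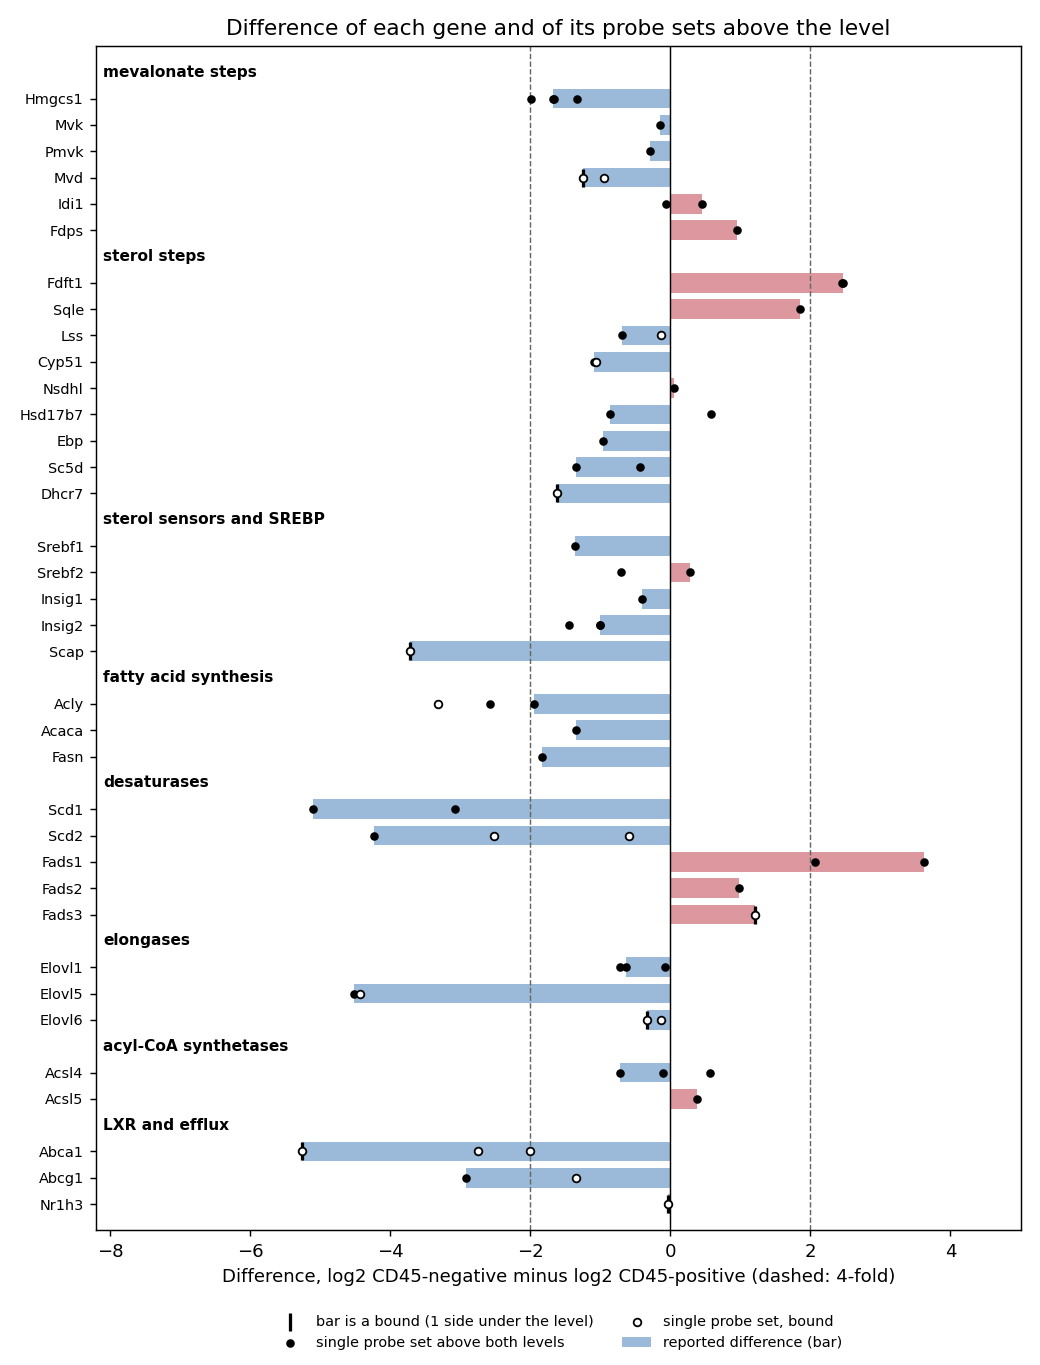
Difference of each gene on the log2 scale (bars, red for brighter in the CD45-negative array and blue for dimmer), with filled points for its single probe sets above both levels, open points for probe sets that give a bound, and a black tick where the bar is a bound. Fads1 and Fdft1 reach 3.63 and 2.47, Scd1 reaches -5.11, and Abca1 is bounded at -5.27 or below. Filled points on both sides of 0 mark genes such as Hsd17b7, Srebf2 and Acsl4, whose probe sets disagree.

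The desaturases differed most among themselves. Scd1, which puts the first double bond into stearate and palmitate, stood at 578.2 in the CD45-negative array against 19933.8, 34.5-fold lower, and its second probe set gave -3.08. Scd2, a close relative with the same reaction, stood at 203.4 against 3834.4, 18.9-fold lower. Its other 2 probe sets were under the level in the CD45-negative array, with differences of -2.52 and -0.59 or below. Both stayed at least 4-fold lower under every alternative tried. Scd3, at 77.4 and 61, was not measured.

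The Fads desaturases, which add double bonds to polyunsaturated chains, went the opposite way. Fads1, the delta-5 desaturase that makes arachidonate, stood at 2684.1 in the CD45-negative array against 217.4, 12.3-fold higher. Its second probe set had a difference of 2.07, also past 4-fold. Fads2, the delta-6 desaturase that acts earlier in the same route, stood at 210 against 107, 1.96-fold higher by 1 probe set above the level, with the CD45-positive value only just above that array's level. Fads3, a relative that acts on sphingoid bases, had 234.6 against 34, under the level, and was at least 2.32-fold higher. The gap between the differences of Fads1 and Scd1, which scaling by 1 factor per array cannot change, was 8.73 on the log2 scale. The gap does depend on the probe set. With the mean of probe sets it was smaller, with Fads1 at 2.85 and Scd1 at -4.09.

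Among the elongases, Elovl5 was the member that stood out. Elovl5, which lengthens polyunsaturated chains between the Fads2 and Fads1 steps, stood at 129.6 in the CD45-negative array against 2968.2, 22.9-fold lower. Its other probe set, at 91.6 under the level, gave a difference of -4.44 or below. The value of 129.6 lay just above the level of 127, so the fold is close to a bound. Elovl1, an elongase of very long chains, stood at 1908.8 against 2958.7 (-0.63), and Elovl6, which extends palmitate to stearate, at 39.6, under the level, against 160, which bounds it at 1.26-fold lower or more. In the route to arachidonate, Fads1 was thus high and Elovl5 low in the same CD45-negative array.

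The acyl-CoA synthetases, which activate free fatty acids, were near level. Acsl4, which favours arachidonate, stood at 670.3 against 1108.6 by its brightest probe set (-0.73), but another above the level gave 0.56, so it has no settled direction. Acsl5 stood at 4373.9 against 3378.3, a difference of 0.37.

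The cholesterol pumps were low in the CD45-negative array. Abca1, which loads cholesterol onto lipid-poor apolipoprotein, showed 97.8, under the level, against 4911.3, at least 38.6-fold lower. All 3 of its probe sets were under the level there, with differences of -5.27, -2.74 and -2.01 or below. Abcg1, which exports cholesterol to lipoprotein particles, stood at 172.4 against 1310.4, 7.60-fold lower. Its second probe set, under the level in the CD45-negative array, gave a difference of -1.35 or below. Nr1h3, the LXR alpha gene that controls both pumps, was close to the detection levels, at 122.1 against 130.1, and showed no difference that could be measured. Among macrophage markers, Lyz2 was 21.8-fold, Csf1r 20.9-fold and Adgre1 5.12-fold lower, and the part of macrophages in the values of the pumps was not tested.

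**Figure D3:**
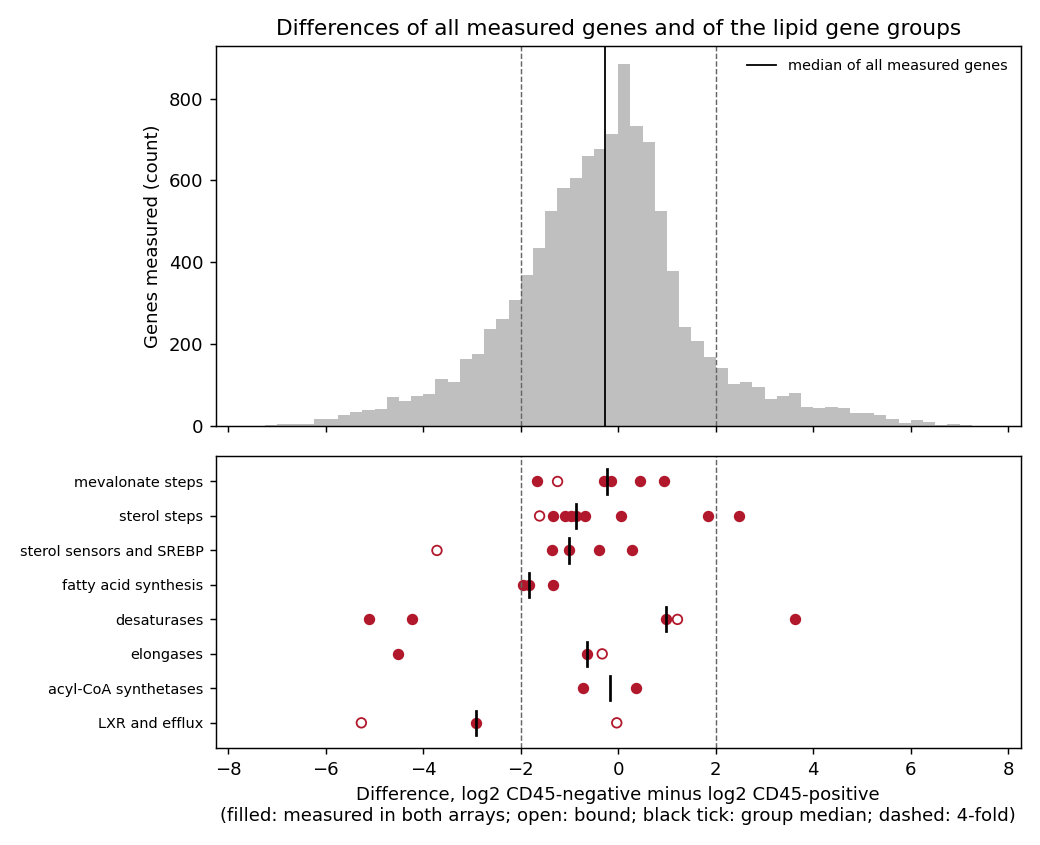
Top, count of all 11205 measured genes by their log2 difference. Bottom, the same difference for the lipid genes by role, filled for genes measured in both arrays, open for bounds, with a black tick at each group's median. The 3 fatty acid synthesis genes lie from -1.95 to -1.35, while the desaturases run from -5.11 to 3.63, with the Scd genes at 1 end and Fads1 at the other.

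Of 47 further genes of the same pathways, 42 had a value and 33 were measured, of which 3 were at least 4-fold higher and 3 lower, 9.09% each, against 8.75% and 16.3% of all genes. Their median difference was -0.27, close to that of all genes. At 2-fold, 5 (15.2%) were higher and 9 (27.3%) lower, against 17.6% and 33.3% of all genes. Those at least 4-fold higher were Hacd1, a dehydratase of the elongation cycle (922.6 against 169, 5.46-fold), Lpcat3, which places polyunsaturated chains in phospholipids (6558.5 against 1563, 4.20-fold), and Mid1ip1, an activator of acetyl-CoA carboxylase (6810.8 against 1628, 4.18-fold). Hacd1 was under 4-fold, at 1.84, without probe sets shared between transcripts, and the last 2, just past 4-fold, were under it after quantile normalization. Nuclear-envelope protein Lbr, which is also a sterol reductase, stood at 31898.5 against 9531, 3.35-fold higher, while Tm7sf2, the other enzyme of that step, was level at 225.6 against 215.9. The sterol carrier Stard4 stood at 1483.1 against 553.7, 2.68-fold higher with 3 of 3 probe sets above the level from 1.42 to 1.60.

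Those at least 4-fold lower were Apoe, the lipid-carrying apolipoprotein (408.1 against 5310.9, 13.0-fold), Hsd17b12, the ketoreductase of the elongation cycle (138.6 against 1532.4, 11.1-fold), and Mbtps2, the site-2 protease that frees SREBP (78.9, under the level, against 971.2, at least 7.63-fold). Mbtps1, the site-1 protease that cuts SREBP first, stood at 1580.8 against 1062.1, with probe sets from -0.62 to 0.57. Of the SREBP activation machinery, Scap and Mbtps2 were therefore under the level in the CD45-negative array, and Mbtps1 was not. Mbtps2 had only 1 probe set and Scap only 1 above a level, so both differences rest on single probe sets. Msmo1, the C4 sterol oxidase, had 289 against 777.9 (2.69-fold lower), the acetyl-CoA synthetase Acss2 894.8 against 998.6, and Mylip, an LXR target that degrades lipoprotein receptors, 3052.9 against 4129.4. The other genes at least 2-fold lower were Npc1 (at least 3.22-fold) and Npc2 (3.43-fold), which export cholesterol from lysosomes, the lysosomal lipase Lipa (3.33-fold), the phosphatidate phosphatase Lpin1 (2.77-fold), and Oxsm, of mitochondrial fatty acid synthesis (at least 2.37-fold). The 3 Lipa probe sets, all above the level, ran from -1.74 to -0.31, so not all passed 2-fold. Of the 3 Oxsm probe sets above the level, 2 were lower and the other gave no direction. Acat2 had no value.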

How the data were processed

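Expression was measured on 1 Affymetrix 3' array for each of 2 sorted cell samples. The authors deposited linear intensities, 1 for each probe set on each array. Their processing notes, per the labels, name GCRMA and Partek 6.6 without saying which step each did, and how the arrays were scaled is not stated there. Means without the outer 2% at each end were 494 and 497, and medians 85.1 and 87.8. A column for detection or saturation was not used here.

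Of 45037 probe sets, 34945 had 1 symbol in GEO's annotation of the platform, 932 had several, and 9160 were unnamed. Of the 34945, 34741 matched the RefSeq table of GRCm38.p6 by Entrez identifier with 0 symbols changed. A gene's value was that of its probe set with the highest mean log2 intensity. No pseudocount was added. The level of an array was the 95th percentile of intensity over the receptor probe sets, taken from both arrays or from that array alone, whichever was higher. Genes whose only measured value did not exceed the other array's level entered the counts with a difference of 0. With 1 array per group no p-value is given, and the number of arrays limits the precision. All members are named, with those of the further pathway genes past 4-fold and a few defining ones. Lbr, Tm7sf2, Stard4, Mbtps1, Scd3, the further genes past 2-fold, the named markers other than Slc4a1 and Lyz2, and the chromosomal neighbours were named after their values were seen. The members, lists and rules were chosen with earlier results of these data known.

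Alternatives concerned scaling, the value per gene and the level. Calls were tested on simulated arrays with planted changes and noise smaller than the spread between probe sets. This checks the calling step alone and says nothing of how reliable the calls on these 2 arrays are. Python 3.11.15, numpy 2.4.6, pandas 2.3.3 and matplotlib 3.10.9 were used.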

Additional observations from a re-analysis of the deposited data

How the results depend on the processing

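Under the 9 alternatives to scaling, value per gene and detection level, Scd1, Scd2, Elovl5, Abca1, Abcg1 and Fads1 stayed past 4-fold in the same direction. The median of the cholesterol enzymes was 0.074 after quantile normalization, against -0.69. With the mean of probe sets, 1 of the 32 lipid genes measured was at least 4-fold higher and 5 lower, against 830 and 1310 of 10074 genes. Among the further pathway genes, 1 was at least 4-fold higher and 4 lower after quantile normalization, against 1081 and 1338 of all 10968 genes measured there. Without a detection level, 6 of 42 were higher and 5 lower, against 2885 and 3293 of all 18193 genes. Quantile normalization raised the median of all genes by 0.28 and centring on genes measured in both arrays, chosen after seeing the data, by 0.16. Of 318 differences of single members, 309 moved by less than 1.13, the SD between probe sets, 9 moved by more and 0 past 4-fold changed sign. Many of these could hardly move. A change of level leaves genes well above it in both arrays as they were, and centring shifts those genes by 1 amount. The count is therefore no measure of reliability. Of the 36 members, 28 kept 1 sign in all settings that measured them and 8 did not, with a difference of 0 taken as no sign. No paired analysis was possible because each group had 1 sample. Detection limits what can be said of Abca1, Scap, Dhcr7, Elovl6, Fads3, Mvd and Nr1h3, each under the level in 1 array.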

Other observations

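Fads3, Fads2 and Fads1 are neighbours on mouse chromosome 19 in the RefSeq table, which was used for gene order only. Of the 9 protein-coding genes from 3 before to 3 after this cluster, 8 were measured. All 8 were brighter in the CD45-negative array, against 40.2% of all genes measured. They include the 3 Fads genes whose values prompted the look, so the count cannot be read against that share. With the mean of probe sets, Fads2 and Fads3 were under the level in both arrays. In order, Fth1, the ferritin heavy chain, had a difference of 1.46, and Rab3il1, a regulator of membrane traffic, had 6.38, or at least 1.70 with the mean of its probe sets. Past the Fads genes, Fen1, a nuclease of DNA replication, had 2.98, Tmem258 had 0.52, and Myrf at least 0.38, at 131.3 against 21.7. Best1 was not measured. The cluster was looked at after the Fads values were seen, and adjacent genes are not independent, so this is a description without a test.

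The Scd genes lie together elsewhere on that chromosome, and their neighbours were mixed. Bloc1s2 stood at 832.9 against 3477.6 (-2.06) and Cwf19l1 at 303.1 against 585.1 (-0.95). Ndufb8, on the far side, stood at 3631.6 against 2934.4 (0.31), but its probe sets averaged -1.61. Pkd2l1 and Wnt8b were under the level in both arrays.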
